A study of Mus musculus with 4 samples.

Results

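*Kit* and 9 other growth factor receptor kinases (*Erbb2*, *Erbb3*, *Egfr*, *Fgfr1*, *Fgfr2*, *Igf1r*, *Insr*, *Axl* and *Mertk*) were followed in mouse melanoma cells that differed in the amount of Met on their surface. Their probes were taken as all probes whose RefSeq accession carries one of these 10 gene symbols, which gave 17 of 39429 probes and 10 of 20832 named genes. The cells came from B16-F10, a melanoma line of C57BL/6 mice, and were separated with an anti-Met antibody and a cell sorter into Met-low and Met-high populations. Both populations were grown for 3 days after the sort in medium with fetal bovine serum, no drug was added, and the gate on surface Met alone set the groups apart. RNA of 2 independently prepared samples per population was hybridised to 1-colour Agilent mouse arrays, 4 in all. All values therefore concern a single cell line grown in culture.

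The receptors belong to families that differ in what they bind. *Kit* encodes the receptor for stem cell factor, which melanoblasts need for migration and survival. *Egfr*, *Erbb2* and *Erbb3* encode ErbB receptors, which pair with each other upon binding of EGF-like ligands or neuregulins; *Erbb2* binds no ligand of its own, and *Erbb3* has little kinase activity and passes its signal through a partner. *Fgfr1* and *Fgfr2* encode receptors for fibroblast growth factors, *Igf1r* and *Insr* those for insulin-like growth factor and insulin, and *Axl* and *Mertk* encode TAM receptors, which bind Gas6 and protein S. Once phosphorylated on tyrosine, by themselves or by a partner, these receptors signal through adaptors to the MAP kinase and PI3 kinase pathways, as Met does.

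Probe intensity was the scanner's background-corrected Cy3 signal, and a log2 signal was that intensity over the 75th percentile of the array, on a log2 scale. This percentile lay between 858 and 1331, up to 53.6% of spots on an array were well above background, and 0 spots were saturated. The arrays shared 1 slide and 1 scan day, where the Met-low RNA took positions 1 and 2 and the Met-high RNA positions 3 and 4. Array position and population therefore cannot be told apart. All 7 melanocytic markers (*Tyr*, *Tyrp1*, *Dct*, *Pmel*, *Mlana*, *Mitf* and *Sox10*) were well above background on all 4 arrays, and 0 of them passed the test between populations. In RNA from whole populations, fewer cells of a kind and less RNA per cell cannot be told apart. P-values rest on the spread between 2 samples of one line, part of which may be technical. The limma fit moderates this spread with that of all tested probes or genes.

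For the 4 receptors with a promoter sequence at hand whose arrays did not overlap between populations, the 250 bases before the first listed transcription start are shown, 5′ to 3′ on the strand of the gene, from RefSeq on GRCm38.p6. Capitals mark the motifs that were searched and found. These were the E-box pattern CANNTG, which basic helix-loop-helix factors bind, and the GC-box core GGGCGG on either strand, which Sp1 binds.
*Kit*, chr5:75574737-75574986, plus strand: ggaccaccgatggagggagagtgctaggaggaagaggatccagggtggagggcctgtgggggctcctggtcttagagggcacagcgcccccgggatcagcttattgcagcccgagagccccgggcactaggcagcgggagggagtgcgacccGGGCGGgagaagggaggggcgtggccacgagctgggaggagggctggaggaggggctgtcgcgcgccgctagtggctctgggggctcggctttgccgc
*Erbb2*, chr11:98412234-98412483, plus strand: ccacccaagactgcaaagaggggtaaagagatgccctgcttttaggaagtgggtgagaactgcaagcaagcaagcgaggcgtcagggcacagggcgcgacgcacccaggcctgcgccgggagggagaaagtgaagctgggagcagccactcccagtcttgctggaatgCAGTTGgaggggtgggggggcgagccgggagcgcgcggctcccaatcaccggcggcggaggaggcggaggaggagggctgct
*Fgfr2*, chr7:130266809-130267058, minus strand: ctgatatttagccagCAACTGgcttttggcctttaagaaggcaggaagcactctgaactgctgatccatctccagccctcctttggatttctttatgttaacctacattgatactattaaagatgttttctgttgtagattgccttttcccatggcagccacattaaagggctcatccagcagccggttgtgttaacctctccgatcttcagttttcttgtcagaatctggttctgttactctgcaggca
*Axl*, chr7:25788734-25788983, minus strand: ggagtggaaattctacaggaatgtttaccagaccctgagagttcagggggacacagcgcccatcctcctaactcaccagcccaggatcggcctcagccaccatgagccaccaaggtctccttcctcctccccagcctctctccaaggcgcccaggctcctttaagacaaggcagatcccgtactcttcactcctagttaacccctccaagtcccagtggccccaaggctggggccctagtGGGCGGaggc
The *Kit* window held 0 E-box patterns and 1 GC-box core, which began 98 bases before the start, in a stretch of 70.8% G and C with 17 CpG dinucleotides. The *Erbb2* and *Fgfr2* windows held 1 E-box pattern each, 82 and 235 bases before the start, and the *Axl* window 1 GC-box core 10 bases before it. The narrower E-box forms CACGTG and CATGTG were also searched and were found 0 times in these windows. The *Fgfr2* window stood apart in composition, with 44% G and C and 2 CpG dinucleotides, against a median of 52.4% and 6 over all promoters. Of 32851 promoter windows of this length, 66.2% held CANNTG and 32.7% held GGGCGG on either strand, so that either pattern is common. A match of letters is a description and shows no binding.

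Of the 17 probes, 8 were well above background on all 4 arrays and 5 on none. The dark probes were all 3 of *Egfr*, that of *Mertk* and 1 of the 2 of *Fgfr2*. The *Egfr* intensities lay between 5.68 and 25.4 and those of *Mertk* between 8.45 and 32.6, while the dimmest probes well above background read between 27.6 and 41.4 on the 4 arrays. Levels of *Egfr* and *Mertk* were therefore not detectable on these arrays, and no ratio is given for them. The 11 tested probes, which cleared the background in both samples of either population, covered the other 8 genes.

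**Figure D1:**
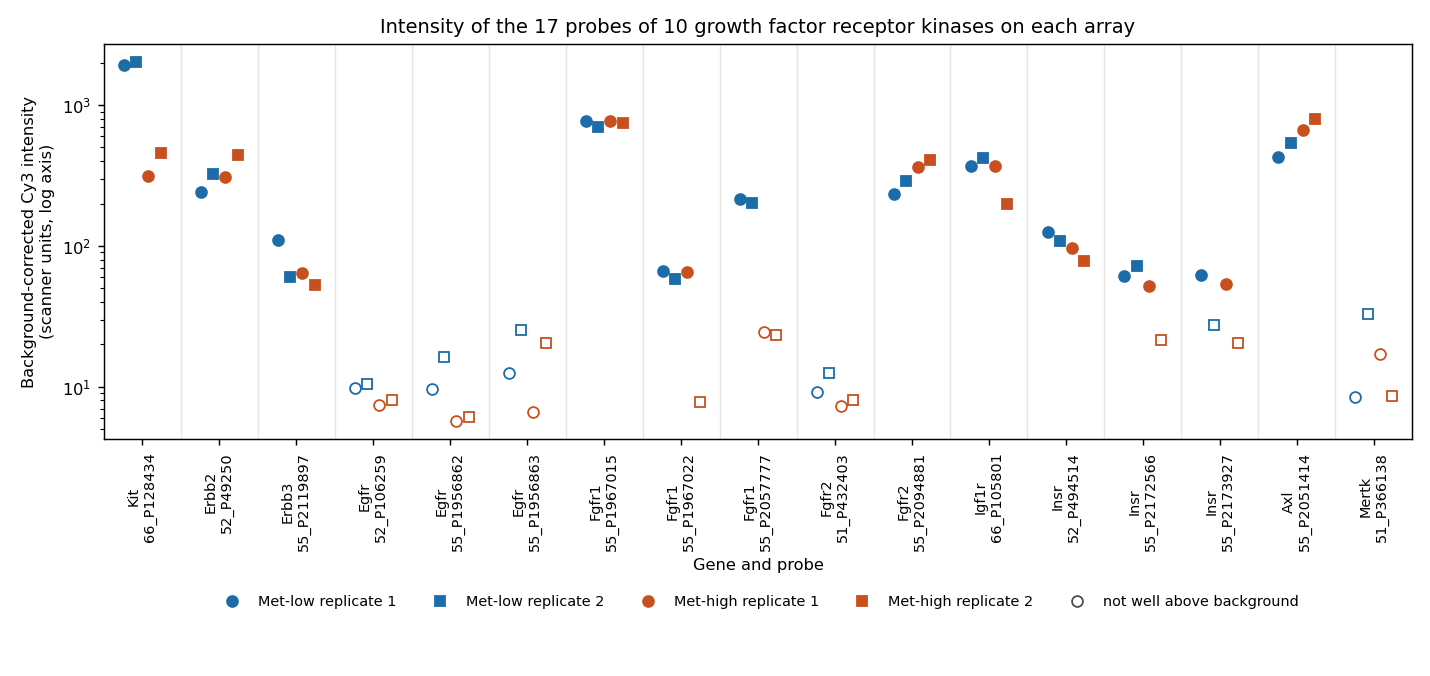
Background-corrected Cy3 intensity (log axis, scanner units) of each of the 17 probes on each of the 4 arrays, with open symbols for arrays on which the probe was not well above background. *Kit* read 1931 and 2025 on the Met-low and 311 and 459 on the Met-high arrays, whereas the *Egfr* and *Mertk* probes were open on every array.

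*Kit* was lower in Met-high cells. Its only probe (A_66_P128434, NM_001122733) read 1931 and 2025 in Met-low and 311 and 459 in Met-high cells, and the scanner gave errors of 193, 203, 31.7 and 46.3 on these readings. Both Met-low samples were far brighter than both Met-high samples, and the probe stayed well above background on all 4 arrays. The log2 signal was 0.82 ± 0.30 in the Met-low and -1.37 ± 0.13 in the Met-high samples (SD, n = 2 each). The log2 ratio, Met-high minus Met-low, was thus -2.19 with a standard error (SE) of 0.21 and a 95% interval of -2.75 to -1.63 (adjusted p = 0.0242, by limma and Benjamini-Hochberg over 19776 probes), or 4.56-fold more signal in Met-low cells. By absolute ratio *Kit* ranked 292 among the 19776 probes. Across 14 alternatives (other background corrections, scalings, filters, probe averages and variance models, and each array left out), the log2 ratio of *Kit* lay between -2.41 and -1.95 and the adjusted p between 0.0118 and 0.124. The call was lost without the filter on dim probes (adjusted p = 0.124) and without Met-high replicate 1 (log2 ratio -2.10, adjusted p = 0.0595), and, outside these 14, with the methods' t-test (adjusted p = 0.229).

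Mast cells also carry *Kit*. Of 5 mast cell markers, *Cpa3*, *Mcpt4*, *Fcer1a* and *Ms4a2* were well above background on no array, and *Tpsb2*, a tryptase gene, read 105 and 287 in Met-low and 108 and 119 in Met-high cells, where the populations overlapped. The summed level of the 5 was 0.148 and 0.244 times the 75th percentile in Met-low and 0.156 and 0.133 times in Met-high cells. Of the fibroblast markers, *Col1a2*, which encodes a collagen chain and was the only 1 of the 6 that could be tested, was lower in Met-high cells (log2 ratio -1.10, SE 0.17, adjusted p = 0.0310 over 11947 genes), and the summed level of the 6 was 0.628 and 0.685 in Met-low and 0.361 and 0.318 in Met-high cells. The call of *Col1a2* was lost whichever array was left out (adjusted p between 0.0643 and 0.101) and without the filter on dim probes (adjusted p = 0.157). *Dcn*, *Lum* and *Pdgfra* were well above background on no array. Summed in the same way, 4 endothelial markers stood at 6.31 and 5.48 in Met-low and 8.44 and 6.72 in Met-high cells. For 4 macrophage and leukocyte markers the sums were 3.89 and 4.97, against 4.09 and 3.84. For 3 keratinocyte markers they were 0.198 and 0.108, against 0.118 and 0.0988. The 7 melanocytic markers summed to 1691 and 1385 in Met-low and 1698 and 1493 in Met-high cells. Whether fibroblasts or other cells gave any of this RNA was not tested.

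*Kitl*, which encodes the ligand of Kit, was well above background on no array, with intensities of 24.6 and 15.2 in Met-low and 12.6 and 15.3 in Met-high cells. The genes whose pattern over the 4 arrays lay closest to that of *Kit* among 11947 genes, by Euclidean distance of log2 signals centred on their means, were *Zcwpw1* (distance 0.0808), *Hsd11b1* (0.176), *Fabp3* (0.205), *Cpt1c* (0.220) and *Zfp981* (0.220). *Hsd11b1* encodes an enzyme that regenerates active glucocorticoid, *Fabp3* a fatty acid binding protein and *Cpt1c* a member of the carnitine palmitoyltransferase family. Their log2 ratios lay between -2.30 and -2.04, and *Zcwpw1* did not clear the background in Met-high cells. The likeness over 4 arrays is a description.

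Among the ErbB receptors, *Erbb2* had 1 probe (A_52_P49250, NM_001003817), printed in 10 spots. The intensities were 242 and 324 in Met-low and 309 and 445 in Met-high cells. These overlapped as read, because the arrays differed in brightness, but relative to the 75th percentile the log2 signals were -1.96 and -2.04 in Met-low and -1.48 and -1.32 in Met-high cells, where each Met-high sample lay above each Met-low sample. The spread between spots of 1 array was small, with a standard deviation of 0.06 to 0.09 on the log2 scale. The log2 ratio was 0.60 (SE 0.16, 95% interval 0.19 to 1.02), and it did not pass the test (adjusted p = 0.135 by limma). It lay between 0.46 and 0.72 over 14 alternatives and passed under 0 of them.

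*Erbb3* (A_55_P2119897, NM_010153), the receptor that takes up neuregulin signals together with *Erbb2*, was dim, at 110 and 59.7 in Met-low and 64.1 and 52.8 in Met-high cells. Met-low replicate 1 stood above the other 3 samples, and the populations overlapped. The log2 ratio was -0.28 (SE 0.52, adjusted p = 0.781), with an interval of -1.64 to 1.08 that leaves more than 2-fold room in either direction. Without Met-low replicate 1 the log2 ratio turned to 0.41.

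*Fgfr1* gave different readings at its 3 probes, which carry the same accession (NM_010206). The brightest probe, A_55_P1967015, read 773 and 700 in Met-low and 776 and 746 in Met-high cells. The populations overlapped there, and the log2 ratio was 0.25 (SE 0.29, 95% interval -0.52 to 1.01, adjusted p = 0.655). The probe A_55_P2057777 read 215 and 203 in Met-low cells, where it was well above background, and 24.3 and 23.2 in Met-high cells, where it was not. Its log2 ratio was -2.94 (SE 0.28, 95% interval -3.67 to -2.21, adjusted p = 0.0232 by limma). With its Met-high signal set to the limit, the Met-low signal was 6.40-fold higher, a bound without an error of its own. With a normexp background correction, which lifts dim signals, the log2 ratio of this probe was -1.38 (adjusted p = 0.0484). The call was lost without the filter on dim probes (adjusted p = 0.118), with the mean of the gene's probes (log2 ratio -1.32, adjusted p = 0.187) and with the methods' t-test (adjusted p = 0.234). Over 13 alternatives its adjusted p lay between 0.0165 and 0.187.

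The third *Fgfr1* probe, A_55_P1967022, read 66.9 and 57.9 in Met-low and 64.8 and 7.75 in Met-high cells. Only Met-high replicate 2 stood apart, and it was not well above background. The log2 ratio of -1.28 (SE 1.16, adjusted p = 0.556) rested on that sample, and was 0.44 without it and -2.99 (adjusted p = 0.0484) without Met-high replicate 1.

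Since these probes share a gene, their difference was also compared within each array. The log2 signal of A_55_P1967015 exceeded that of A_55_P2057777 by 1.85 and 1.78 in Met-low and by 5.00 and 5.01 in Met-high cells. As A_55_P2057777 did not clear the background in Met-high cells, the differences there rest on readings below the detection limit. Calculated from the readings, the populations were 3.19 (SE 0.12) apart in this difference, which did not pass after Benjamini-Hochberg adjustment over 4388 pairs of probes of 3075 genes (adjusted p = 0.0930 by limma). No pair did, with 0 called (0% of all pairs) and 348 at an unadjusted p under 0.05. The comparison was chosen after the data were seen, and an unequal change of the probes is not shown by it. Which transcripts the probes detect was not determined, since no probe sequence was analysed here.

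**Figure D2:**
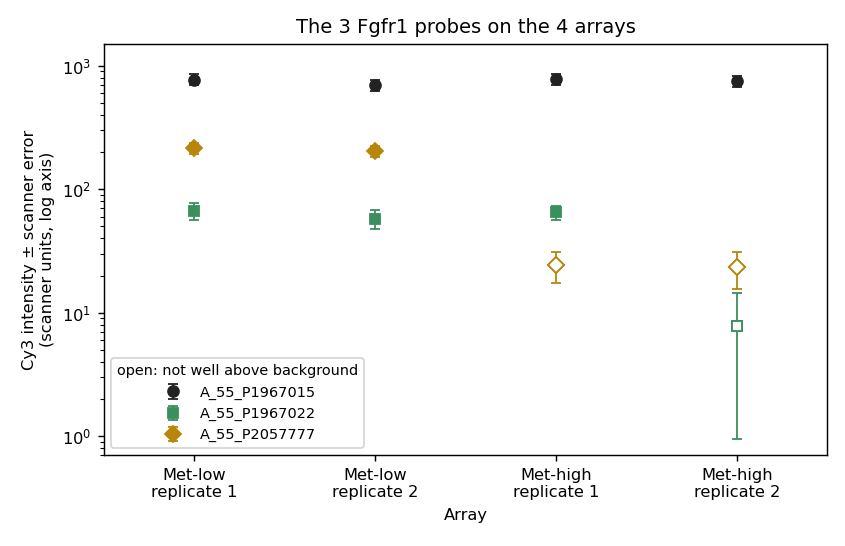
Cy3 intensity (log axis) with the scanner's error for the 3 *Fgfr1* probes on the 4 arrays, open symbols marking arrays on which a probe was not well above background. A_55_P1967015 stayed between 700 and 776 on all arrays, while A_55_P2057777 read 215 and 203 in Met-low and 24.3 and 23.2 in Met-high cells.

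*Fgfr2* (A_55_P2094881, NM_010207) had intensities of 232 and 291 in Met-low and 364 and 410 in Met-high cells. Both Met-high samples lay above both Met-low samples, as did the log2 signals of -2.11 ± 0.12 in the Met-low and -1.34 ± 0.14 in the Met-high samples (SD, n = 2 each). The log2 ratio of 0.77 (SE 0.17, 95% interval 0.32 to 1.22) did not pass the test (adjusted p = 0.103 by limma), and it lay between 0.63 and 0.89 over 14 alternatives. The other *Fgfr2* probe, A_51_P432403, with 10 spots and the same accession, read 7.31 to 12.5 and was dark on all arrays.

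The receptors for insulin and insulin-like growth factor overlapped between the populations at every probe. *Igf1r* (A_66_P105801, NM_010513) read 369 and 422 in Met-low and 370 and 199 in Met-high cells. Met-high replicate 2 alone was low, the log2 ratio was -0.34 (SE 0.45, 95% interval -1.53 to 0.84, adjusted p = 0.686), and without that sample it turned to 0.29. *Insr* (NM_010568) read 126 and 108 in Met-low and 96.4 and 78.4 in Met-high cells at its brightest probe, A_52_P494514. Relative to the 75th percentile these values overlapped, and the log2 ratio was -0.23 (SE 0.35, 95% interval -1.16 to 0.70, adjusted p = 0.739). Its probe A_55_P2172566 read 61.5 and 71.5 in Met-low and 51.7 and 21.6 in Met-high cells, with Met-high replicate 2 not well above background, and had a log2 ratio of -0.79 (SE 0.56, adjusted p = 0.458). A further probe, A_55_P2173927, at 61.7 and 27.5 in Met-low and 53.7 and 20.6 in Met-high cells, was well above background only on replicate 1 of each population and was not tested. The intervals of *Igf1r* and *Insr* include both a fall of more than 2-fold and an increase of less than 2-fold.

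*Axl* (A_55_P2051414, NM_009465) had the highest log2 ratio of the 11 tested probes. It read 429 and 538 in Met-low and 664 and 796 in Met-high cells, and the Met-high samples were the brighter ones. The log2 signal was -1.22 ± 0.12 in the Met-low and -0.42 ± 0.08 in the Met-high samples (SD, n = 2 each), which gave a log2 ratio of 0.80 (SE 0.16, 95% interval 0.37 to 1.22). This did not pass the test (adjusted p = 0.0897 by limma), and the log2 ratio lay between 0.65 and 0.88 over 14 alternatives, of which 0 gave a call. Outside these alternatives, *Axl* and *Fgfr2* passed when the replicate number was taken as a block (adjusted p = 0.0316 and 0.0323), as did *Pros1* (0.0111) and *Met* (0.04999), but the labels tie replicate numbers to nothing that samples share.

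Of the ligands of *Axl* and *Mertk*, *Gas6* was well above background on no array, at 9.30 and 12.9 in Met-low and 14.9 and 18.1 in Met-high cells. *Pros1* (NM_011173), which encodes protein S, was detected throughout, at 616 and 670 in Met-low and 303 and 288 in Met-high cells. Both Met-low samples were above both Met-high samples, opposite to *Axl*, but the log2 ratio of -0.92 (SE 0.24) did not pass the test (adjusted p = 0.0875 by limma, over genes). *Tyro3*, which encodes the remaining TAM receptor and was picked for that after its values were seen, read 2846 and 3069 in Met-low and 4627 and 3859 in Met-high cells. Its log2 ratio was 0.71 (SE 0.27, adjusted p = 0.181).

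Over all 11 tested receptor probes, 2 were called lower in Met-high cells, 1 of *Kit* and 1 of *Fgfr1*, and 0 were called higher. Over all 19776 probes, 2.06% were called lower and 0.556% higher. The called *Fgfr1* probe passed the filter only through Met-low cells, and its Met-high readings were not well above background. With the filter on all 4 arrays, only the call of *Kit* remained. At an unadjusted p under 0.05 there were 2 lower and 3 higher receptor probes, the latter those of *Erbb2*, *Fgfr2* and *Axl*, beside 11.3% and 11.2% of all probes. The Met-low samples lay above the Met-high samples at 2 probes and below them at 3, where 23.0% and 32.4% of all probes did the same, and they overlapped at 6. The share of receptor probes with Met-high above was thus near that of all probes. The median log2 ratio of the receptor probes was -0.28, beside 0.07 for all probes, but its sign changed with single arrays left out. The filter was then reapplied, so the number of probes varied. The median was 0.14 over 11 probes without Met-low replicate 1 and 0.37 over 12 without Met-high replicate 2. It was -0.76 over 12 without Met-low replicate 2 and -0.61 over 11 without Met-high replicate 1. Over the 8 probes well above background on all 4 arrays it was 0.01.

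**Figure D3:**
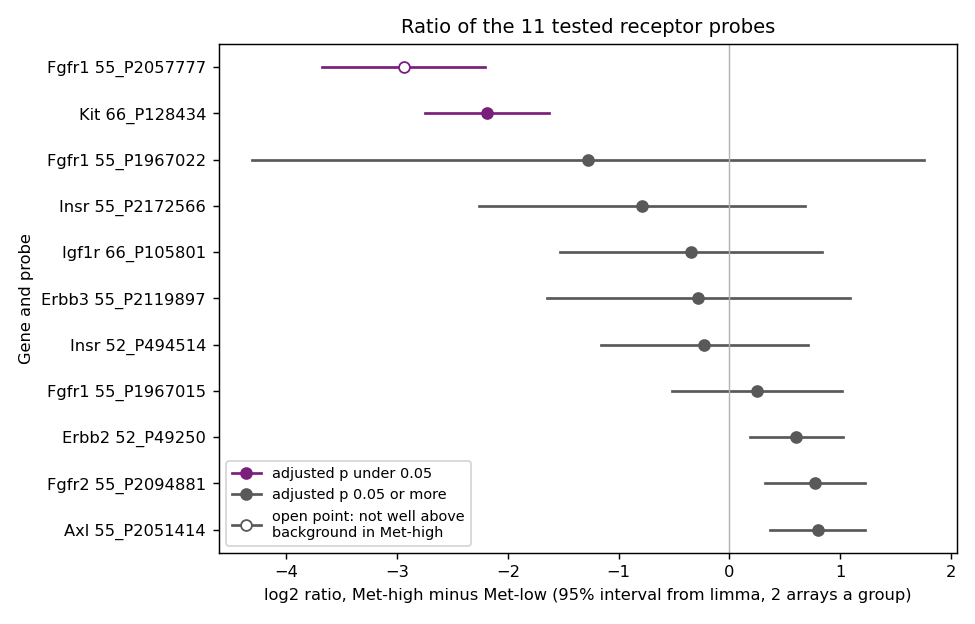
Log2 ratio, Met-high minus Met-low, of the 11 tested receptor probes with the 95% interval from limma (2 arrays per population). The intervals of *Kit* (-2.75 to -1.63) and of 1 *Fgfr1* probe (-3.67 to -2.21, open since it did not clear the background in Met-high cells) lie farthest from 0, and those of *Erbb2*, *Fgfr2* and *Axl* lie above 0 with an adjusted p of 0.0897 or more.

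The genes around these receptors were grouped by role, with 1 probe per gene, the brightest. In this fit over 11947 genes, 3.81% were called lower and 1.94% higher in Met-high cells, and *Kit* was called (adjusted p = 0.0097). Of 36 ligands, 20 were dark on all arrays and 10 could be tested. The only ligand called was *Tgfa* (NM_031199), a ligand of *Egfr*, at 88.7 and 78.1 in Met-low and 20.9 and 16.3 in Met-high cells. It passed the filter only through Met-low cells and did not clear the background in Met-high cells. Its log2 ratio was -2.19 (SE 0.33, adjusted p = 0.0289 by limma). With its Met-high signal set to the limit, the Met-low signal was 2.52-fold higher, a bound without an error of its own. With a normexp correction the log2 ratio was -0.63 (adjusted p = 0.163 by limma). The filter on all 4 arrays left 0 ligands called. Over 13 alternatives the adjusted p of *Tgfa* lay between 0.0055 and 0.163. At an unadjusted p under 0.05 by limma, 5 of the 10 tested ligands were lower and 0 higher, beside 11.9% and 14.3% of all genes. The median log2 ratio of the 10 tested ligands was -0.43, beside 0.10 for all genes. The filter was reapplied when 1 array was left out, so the number of ligands varied. The median was then -0.085 over 11 ligands without Met-high replicate 1 and -0.091 over 13 without Met-high replicate 2. It was -0.61 over 12 without Met-low replicate 1 and -0.30 over 10 without Met-low replicate 2. Over the 6 ligands well above background on all 4 arrays it was -0.67.

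Of 18 ligand-binding proteins and co-receptors, 11 were tested and 0 were called by limma, with 0 lower and 3 higher at an unadjusted p under 0.05, a level that 11.9% and 14.3% of all genes passed. The largest log2 ratio among them was 0.70 (SE 0.15, adjusted p = 0.0661), of *Fgfrl1*, a fibroblast growth factor receptor without a kinase domain. Of 41 adaptors and effectors, 35 were tested and again 0 were called, with 7 lower and 1 higher at an unadjusted p under 0.05, and the largest log2 ratio, -1.52 (SE 0.49, adjusted p = 0.137), was that of the docking protein gene *Gab3*. The medians of these groups were 0.06 and 0.04 and changed sign with single arrays left out, when they ran from -0.06 to 0.11 for the co-receptors, lowest without Met-low replicate 2, and from -0.08 to 0.16 for the adaptors, where leaving out Met-low replicate 2 or Met-high replicate 1 gave values below 0.

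Among 28 brakes on receptor signalling, 21 were tested. Of these, 0 were called lower and 1 was called higher in Met-high cells, beside 3.81% and 1.94% of all genes. At an unadjusted p under 0.05 by limma, 1 was lower and 2 were higher, beside 11.9% and 14.3% of all genes. The called gene was *Dok1* (NM_010070), a docking protein that dampens signals of tyrosine kinases. It read 787 and 1471 in Met-low and 3436 and 5667 in Met-high cells. Both Met-high samples exceeded both Met-low samples, and the log2 ratio was 2.23 (SE 0.22, adjusted p = 0.0107 by limma). It kept its call under 13 of 14 alternatives, the exception among these being no filter on dim probes (adjusted p = 0.0863, the highest of a range from 0.0037). With the methods' t-test, outside the 14, *Dok1* did not pass (adjusted p = 0.214), nor did *Tgfa* (0.262), *Ntrk3* (0.280) or *Lmtk3* (0.280). The median over the brakes was 0.11, and -0.02 when Met-high replicate 1 was left out.

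Of 48 other receptor tyrosine kinases, 24 were dark on all arrays, 23 were tested, 1 was called lower and 1 higher. *Ntrk3* (NM_182809), the receptor for neurotrophin-3, read 99.9 and 125 in Met-low and 34.1 and 24.3 in Met-high cells, with only 1 of the latter well above background. Its log2 ratio was -1.76 (SE 0.31, adjusted p = 0.0406), and over 13 alternatives the adjusted p lay between 0.0037 and 0.229. It lost its call without Met-low replicate 1 (adjusted p = 0.0886), with normexp, without the filter on dim probes and with the mean of the gene's probes. *Lmtk3* (NM_001005511), a lemur family kinase, read 43.6 and 97.3 in Met-low and 140 and 158 in Met-high cells. The log2 ratio was 1.39 (SE 0.26, adjusted p = 0.0465), and it passed under 9 of 14 alternatives with adjusted p between 0.0156 and 0.191. Leaving out Met-low replicate 1 gave an adjusted p of 0.105, leaving out Met-high replicate 1 gave 0.0702 and leaving out Met-high replicate 2 gave 0.0624. *Met* itself, the basis of the sort, read 789 and 721 in Met-low and 1759 and 826 in Met-high cells. Only Met-high replicate 1 was clearly above the Met-low samples, and the log2 ratio was 0.87 (SE 0.51, adjusted p = 0.332). It was 1.61 (adjusted p = 0.0436) when Met-high replicate 2 was left out and 0.14 (adjusted p = 0.830) when Met-high replicate 1 was.

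**Figure D4:**
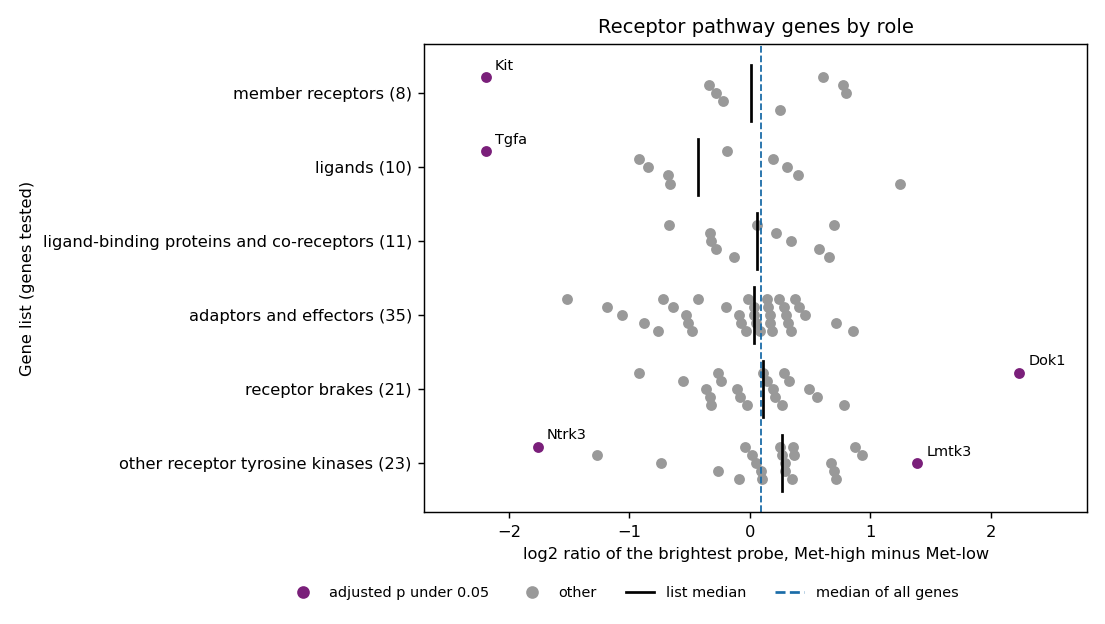
Log2 ratio, Met-high minus Met-low, of every tested gene of 6 role groups, with the median of each group as a bar and that of all 11947 genes (0.10) as a dashed line. *Kit*, *Tgfa* and *Ntrk3* on the lower side and *Dok1* and *Lmtk3* on the higher side had an adjusted p under 0.05. *Tgfa* did not clear the background in Met-high cells.

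Taking the 75th percentile over detected probes alone moved the median log2 ratio of all probes from 0.07 to -0.07 and that of all genes from 0.10 to -0.05. This scaling lowered every log2 ratio by the same amount, so no gene or group moved against another, and ratios far from 0 could not change sign. The log2 ratios of *Kit*, *Erbb2*, *Fgfr2* and *Axl* became -2.34, 0.46, 0.63 and 0.65. The medians of the adaptors (-0.11), of the co-receptors (-0.09) and of the brakes (-0.04) turned negative, as did that of all genes.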

How the data were processed

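RNA of Met-low and Met-high cells, 2 samples each, was measured on 4 one-colour Agilent arrays. The authors deposited scanner output from Feature Extraction (version 11.0.1.1 per the file headers, 10.7.3.1 per the submitters' processing notes), with a linear Cy3 intensity per spot after background correction and with flags that mark outliers and signal well above background. The authors also deposited a table of log2 values. Set against the scanner intensities, these log2 values were scaled to the 75th percentile of the array and centred per probe, with 93.0% to 99.5% of 39429 probes within 0.01. It was used as an alternative.

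Intensities were floored at 0.01 (0 spots changed), divided by the 75th percentile of their array and taken to log2. Flagged spots, 207 to 232 per array, were left out, and spots of a probe were averaged. A probe was kept when more than 50% of its spots were well above background in both samples of either population. Met-high was compared with Met-low in limma (version 3.58.1, R 4.3.3; lmFit, eBayes), with Benjamini-Hochberg adjustment over 19776 probes (receptors) or over 11947 genes with the brightest probe of each (role groups), a two-sided threshold of 0.05 and no covariate. With 2 arrays against 2, only 3 splits exist, so that no permutation p under 0.05 is possible. In a bound, a dim array counts as the dimmest probe well above background or the probe's own signal, whichever is higher. A bound is a point value, not a guaranteed minimum. Accessions were named through the RefSeq table of GRCm38.p6, which matched 27427 of 39429 probes.

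Named genes were all receptor probes, the called gene or genes and the largest ratio of each role group, *Kitl*, *Gas6*, *Pros1* and *Met*, and the 5 genes nearest to *Kit*. Beside these, cell type markers from a list were named, and *Tyro3* was added after its values were seen. The members, the lists and the tests were chosen with earlier results of these data known. On data simulated for this comparison with 19776 probes, 66 of 100 probes changed by 2 on the log2 scale and 94 of 100 changed by 4 were called, with 5 false calls. Alternatives were normexp background correction (offset 50), quantile normalization, the 75th percentile over detected probes, flagged spots kept, the floor set after scaling and the authors' values. Others were no filter or one on all 4 arrays, each array left out, a replicate block and a mean-variance trend. The last were a Student's t-test, a 2-fold threshold with or without the limma test, and the mean of a gene's probes. The comparison of probe pairs was added after seeing the data. Promoter motifs were counted with Python 3.11.15.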

Additional observations from a re-analysis of the deposited data

How the results depend on the processing

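The number of arrays limits the precision, and dim probes have only bounds. Of the receptor probes called, 2 were lower and 0 higher. Without the filter on dim probes or with a Student's t-test, 0 lower remained past the threshold. The filter on all 4 arrays, which drops the *Fgfr1* probe, left 1. With 1 array left out, the log2 ratio of *Erbb3* ranged from -0.97 to 0.41 (0.41 without Met-low replicate 1, 0.05 when Met-high replicate 2 was left out), that of *Fgfr1* A_55_P1967015 from -0.075 (without Met-low replicate 2) to 0.57, that of *Fgfr1* A_55_P1967022 from -2.99 to 0.44, that of *Igf1r* from -0.98 to 0.29, that of *Insr* A_52_P494514 from -0.59 to 0.14 (0.14 without Met-low replicate 1, 0.11 when Met-high replicate 2 was left out) and that of *Insr* A_55_P2172566 from -1.61 to 0.025. The upper ends of A_55_P1967022, *Igf1r* and A_55_P2172566, reversed in sign, came when Met-high replicate 2 was left out. The mean of the 3 *Fgfr1* probes reversed the ratio of A_55_P1967015, to -1.32.

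With the replicate number as a block, 2 receptor probes lower and 2 higher passed, and the calls lower and higher were 1793 and 1467 among all probes, 1578 and 1974 among all genes, 5 and 0 among ligands, 1 and 3 among ligand-binding proteins and co-receptors, 8 and 2 among adaptors, 1 and 3 among brakes and 3 and 6 among other receptor kinases. Deviations of Met-low and Met-high replicate 1 from their group means correlated at 0.53 across probes, but the labels name nothing that the numbers share.

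Without the block, 408 probes were lower and 110 higher, and 455 genes lower and 232 higher. Without the filter these were 0 and 0 probes and 7 and 0 genes, with the t-test 0 and 0 probes and 0 and 1 genes, and with 2-fold alone 1151 and 421 probes. Higher calls were 63 probes and 142 genes with the percentile over detected probes and 190 probes and 395 genes with a mean-variance trend. Leaving out 1 array gave 214 to 523 probes lower and 32 to 264 higher, and 384 to 526 genes lower and 106 to 394 higher.

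Among ligands the 1 lower call became 0 with normexp, without the filter, with the filter on all 4 arrays and with the t-test, and 1 to 2 without 1 array; the 0 higher became 1 with 2-fold alone and 0 to 1 without 1 array. Among adaptors the 0 lower calls became 1 with the percentile over detected probes, 3 with 2-fold alone and 0 to 2 without 1 array, and the 0 higher became 1 with the filter on all 4 arrays and 1 with a trend, which also gave 1 co-receptor higher. Among brakes the 1 higher call became 0 without the filter and with the t-test and 2 with a trend. Among other receptor kinases the 1 lower call became 0 with normexp, without the filter, with the filter on all 4 arrays, with the t-test and with the mean of the gene's probes, 2 with 2-fold alone and 0 to 2 without 1 array, and the 1 higher became 2 with quantile normalization, 0 with the percentile over detected probes, without the filter and with the t-test, and 0 to 1 without 1 array. The causes were not tested.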
